A study of Mus musculus with 36 samples.

Results

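The distal convoluted tubule was followed through 10 genes, taken by symbol from the 18049 genes of the deposited table. They are the cotransporter Slc12a3, its regulators Wnk1, Wnk4, Stk39 and Klhl3, and the calcium and magnesium genes Pvalb, Calb1, Trpm6, Trpv5 and Slc8a1. All 10 were measured in whole kidneys of C57BL/6 mice by RNA sequencing. The groups were Digenic mice with both mutations, Pkd1-RC/RC mice, Pkhd1-/- mice and wild-type (WT) mice, each taken at birth (P0) or on postnatal day 3 (P3) or 12 (P12), with 3 libraries per group and 36 in all. Mutations of Pkd1, the gene for polycystin-1, underlie most dominant polycystic kidney disease, and the RC allele is a point change that weakens the protein. Mutations of Pkhd1, the gene for fibrocystin, underlie the recessive disease, and the series asks how mutations of both genes interact. The labels name no transgene or Cre, and a whole kidney mixes all its segments.

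The distal convoluted tubule lies after the thick ascending limb and reabsorbs sodium chloride through the thiazide-sensitive cotransporter NCC, the product of Slc12a3. WNK kinases switch on the kinase SPAK, the product of Stk39, which phosphorylates NCC, and the ubiquitin ligase adaptor KLHL3 removes WNK kinases. The segment also takes up magnesium through the channel TRPM6, and its later part, with the connecting tubule, carries calcium from the TRPV5 channel through the buffer calbindin-D28k to the exchanger NCX1. Much of this control acts on proteins, which RNA levels do not measure.

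Total counts ran from 51411240 to 80789299 per library. Pkhd1 stood at 5.90 to 32.8 CPM in the libraries labelled Digenic or Pkhd1-/- and at 61.6 to 249 CPM in the others. At P12 the column headers of Digenic replicate 1 (age) and Pkd1-RC/RC replicate 2 (genotype) differ from the labels, which were used. By their counts the P3 Digenic libraries were all female and the P3 Pkhd1-/- and P12 Pkd1-RC/RC libraries all male, and the counts of 3 libraries at P0 or P3 go against the sex in their header. Adrenal transcripts stood out in 9 libraries, among them Digenic replicates 2 and 3 of P12. The labels give each library its own identifier but do not state that libraries are separate mice. By counts 9 of the 12 groups held both sexes, and all pairs of libraries within a group differed far beyond counting noise (chi-square per gene 18.0 or more), so none was taken as a repeat. The p-values measure the spread between these samples. The 6 marker genes of distal convoluted tubule identity were detected in every P12 library.

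The sequences before the starts of Slc12a3, Pvalb and Trpv5 are shown because these 3 genes carry the largest RNA differences between genotypes or ages among the 10. They are the 250 bases upstream of the RefSeq start on GRCm38.p6 (mm10), 5′ to 3′ on the strand of the gene, with motif matches in capitals. Slc12a3 (chr8:94328958-94329207, plus strand) has an AP-2 match at -73 and a TATA box at -32 from the start. Pvalb (chr15:78206401-78206650, minus strand, the first of its 2 listed promoters) has an AP-2 match at -81. Trpv5 (chr6:41680724-41680973, minus strand) has a TATA box at -43.
Slc12a3: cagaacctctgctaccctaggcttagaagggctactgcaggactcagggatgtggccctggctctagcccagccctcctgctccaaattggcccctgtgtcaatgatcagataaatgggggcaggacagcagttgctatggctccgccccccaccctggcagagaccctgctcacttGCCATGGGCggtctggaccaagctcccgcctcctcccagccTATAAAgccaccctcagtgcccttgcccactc
Pvalb: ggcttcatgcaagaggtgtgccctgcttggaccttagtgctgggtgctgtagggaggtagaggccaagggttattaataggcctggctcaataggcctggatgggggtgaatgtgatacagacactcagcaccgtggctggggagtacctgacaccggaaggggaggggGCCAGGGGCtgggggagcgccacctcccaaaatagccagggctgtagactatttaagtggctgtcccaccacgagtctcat
Trpv5: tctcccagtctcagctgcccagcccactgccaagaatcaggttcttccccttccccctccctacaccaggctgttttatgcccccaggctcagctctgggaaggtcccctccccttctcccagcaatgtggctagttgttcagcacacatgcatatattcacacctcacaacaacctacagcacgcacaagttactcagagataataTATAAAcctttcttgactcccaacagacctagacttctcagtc
Of 4 motifs searched on both strands of 300 bases (250 before to 50 after the start), 3 are given here, namely TATAAA, the AP-2 motif GCCNNNGGC and the nuclear receptor core AGGTCA, and no matches overlapped. Promoters were listed for 9 of the 10 genes, all but Calb1. These 9 are counted by gene, with a match in any listed promoter, while the shares of all promoters are counted by promoter. The AP-2 motif was found in 6 of these 9, namely Slc12a3, Wnk1, Wnk4, Stk39, Pvalb and Trpm6, and in 16.6% of all 32851 promoters. TATAAA was found in 2 of the 9, Slc12a3 and Trpv5, and in 13.6% of all promoters. AGGTCA was found in 0 of the 9, and in 16.3% of all promoters. A match describes letters and is not evidence that a factor binds there.

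In WT kidneys at P12, NCC and parvalbumin RNA stood well above P3 and P0, while Calb1, Trpv5 and Slc8a1 RNA did not rise. Levels per gene length, as RPKM, put Calb1 highest at P0 and P3, with 72.8 ± 35.1 and 57.5 ± 20.5, and Slc12a3 next, with 47.3 ± 16.3 and 36.3 ± 5.85 (SD, n = 3 each, as for all levels below). At P12 the order of both had changed, with Slc12a3 at 131 ± 8.29 RPKM and Calb1 at 61.9 ± 17.4 RPKM. Below them at P12 came Wnk1 at 30.5 ± 2.64, Wnk4 at 30.4 ± 1.61, Slc8a1 at 14.1 ± 2.21 and Stk39 at 10.2 ± 0.74 RPKM. Trpv5 stood at 7.07 ± 0.296, Klhl3 at 6.15 ± 0.614, Pvalb at 6.12 ± 1.31 and Trpm6 at 1.21 ± 0.086 RPKM. Wnk1 and Wnk4 did not differ beyond their spread, nor did Pvalb from Trpv5 or Klhl3, while these 3 WT libraries each had more Trpv5 than the highest Klhl3 level. In WT kidneys at P12 against P3, 6 of 10 members rose by edgeR's quasi-likelihood test, where 35.5% of all genes passed in either direction. These were Slc12a3, Wnk1, Wnk4, Stk39, Klhl3 and Pvalb, and only the calls of Slc12a3 and Pvalb held without each of the 6 libraries in turn. Slc12a3 rose 3.6-fold (log2 change 1.85 ± 0.25, SE, adjusted p = 1.49e-06) and Pvalb 7.01-fold (2.81 ± 0.52, adjusted p = 0.000112). Wnk1 rose by 0.72 on the log2 scale (adjusted p = 0.00806), which without P3 replicate 2 was 0.47 (adjusted p = 0.0831). Wnk4 (0.71, adjusted p = 0.0327) lost its call without any 1 of the 6 libraries, with 0.62 to 0.74. Stk39 (0.23, adjusted p = 0.0459) lost it without P12 replicate 1 or 2 or any P3 replicate, with 0.15 to 0.26. Klhl3 (0.65, adjusted p = 0.0196) lost it without P12 replicate 1 or 3 or P3 replicate 2, with 0.40 to 0.63.

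Over the whole interval, WT P12 against P0, 6 of 10 members again rose, against 49.8% of all genes called in either direction. Pvalb rose 31.8-fold (log2 change 4.99 ± 0.60, adjusted p = 1.16e-07), with 4.97, 7.70 and 6.44 CPM at P12 against 0.167, 0.178 and 0.247 CPM at P0. Slc12a3 rose 2.76-fold (1.47 ± 0.25, adjusted p = 1.68e-05), Wnk1 2.1-fold (1.07 ± 0.21, adjusted p = 0.000133) and Klhl3 by 0.74 (adjusted p = 0.00572). Wnk4 (0.84, adjusted p = 0.00849) and Trpm6 (0.995, adjusted p = 0.0101) lost their calls without P0 replicate 1 or 3, where Wnk4 changed by 0.60 and 0.64 and Trpm6 by 0.83 and 0.81. Calb1 (-0.23 ± 0.31), Trpv5 (-0.72 ± 0.39), Slc8a1 (-0.21 ± 0.33) and Stk39 (-0.03 ± 0.09) did not pass, though Trpv5 did without P0 replicate 3 (-1.10, adjusted p = 0.0197). At P3 against P0, 3 of 10 members changed, against 24.7% of all genes. Pvalb rose 4.54-fold (2.18 ± 0.59, adjusted p = 0.00793). Stk39 fell by 0.26 (adjusted p = 0.0367) and lost its call without P3 replicate 1 or 3 or P0 replicate 2 or 3, with -0.26 to -0.19. Trpv5 fell by 1.11 (adjusted p = 0.0408), which was -0.18 without P0 replicate 2 and -0.98 without P3 replicate 2 or 3, none of them called. That P0 replicate held 73.4 CPM of Trpv5 and the other P0 replicates 24.6 and 15.4 CPM, with Calb1, Wnk4 and Trpm6 highest in it as well. Without it, Wnk4 (0.69, adjusted p = 0.023) and Trpm6 (1.06, adjusted p = 0.0203) passed at P3 against P0, and without P3 replicate 2 Wnk1 (0.60, adjusted p = 0.0303) and Trpm6 (0.91, adjusted p = 0.0381) did.

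**Figure D1:**
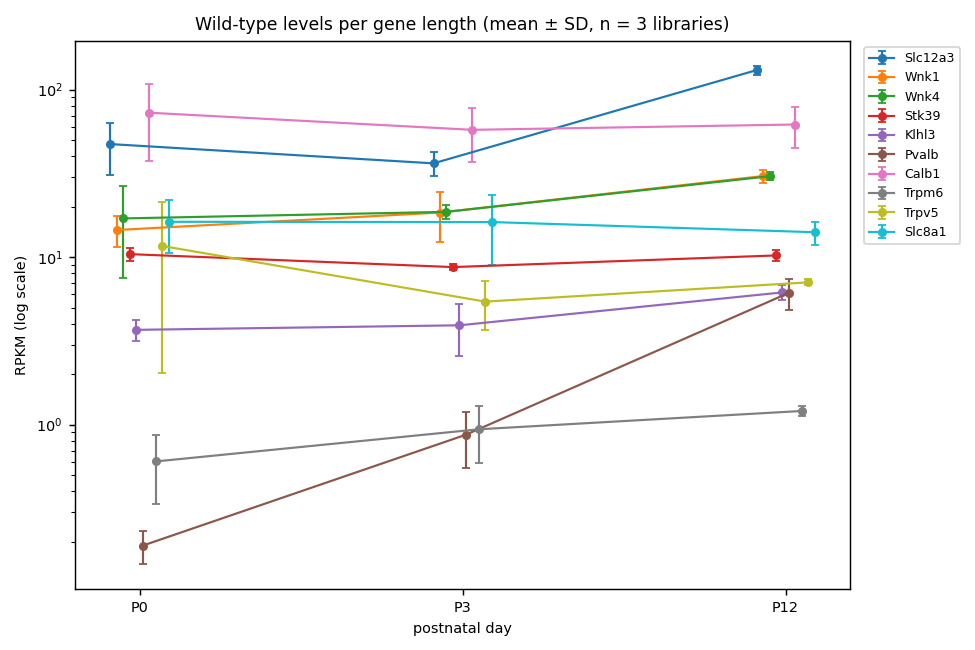
Levels of the 10 genes per gene length (RPKM, log axis) in WT kidneys at P0, P3 and P12; points are means and bars SD over 3 libraries. Slc12a3 climbs above Calb1 by P12, and Pvalb has 6.12 RPKM at P12 against 0.19 RPKM at P0.

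At P12, RNA of parvalbumin fell in Digenic kidneys and RNA of the TRPV5 channel and the NCX1 exchanger rose. Slc12a3, Calb1, Trpm6 and the 4 regulators did not pass the test. In the comparison with WT, 3 of 10 members passed, 2 up and 1 down, a share near the 23.0% of all genes that passed. The libraries of both groups did not overlap for 5 of the 10, and for 35.4% of all genes. In a whole kidney, fewer cells of a type and less RNA per cell cannot be told apart, and this holds for every difference below. Levels from here on are CPM, comparable between samples within a gene, and changes are log2 fold changes ± SE.

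The cotransporter gene Slc12a3 (ENSMUSG00000031766, chromosome 8: 94329192 to 94366213) had 245, 208 and 411 CPM in Digenic kidneys, against 414, 419 and 464 CPM in WT kidneys. All Digenic values lay below all WT values, but Digenic replicate 3 came close to them. The change was -0.59 ± 0.20 with an adjusted p of 0.0532, just short of the threshold. Without Digenic replicate 3 it was -0.94 (adjusted p = 0.000481), and with DESeq2 -0.58 (adjusted p = 0.0139). Without the libraries with adrenal transcripts it was -0.81, but this leaves Digenic replicate 1 alone, whose header differs from its label in age.

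Pvalb (ENSMUSG00000005716, chromosome 15: 78191114 to 78206400) encodes parvalbumin, a cytosolic calcium buffer of the early distal convoluted tubule. It had 0.720, 1.71 and 0.540 CPM in Digenic kidneys (41, 90 and 33 counts), against 4.97, 7.70 and 6.44 CPM in WT kidneys (395, 489 and 509 counts). The groups were far apart, and the Digenic level was closer to that of WT kidneys at P3, 0.611 to 1.26 CPM, than at P12. The change was -2.70 ± 0.46 (adjusted p = 0.00194), a 6.49-fold lower level, with -3.32 to -2.40 when each library was left out in turn. Skeletal muscle also makes parvalbumin, and of 12 marker genes listed for it only 6 are among the deposited genes. These 6 summed to 3.78 to 4.16 CPM in Digenic and 5.25 to 5.58 CPM in WT kidneys, none at 0 in a library. Of 5 tested, 1 was lower (Atp2a1, the muscle calcium pump), and the part of these markers in the result was not tested.

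Of the 4 regulators of the cotransporter, none passed. Wnk1 (ENSMUSG00000045962, chromosome 6: 119923969 to 120038672), whose main kidney form lacks most of the kinase domain, had 366, 346 and 485 CPM in Digenic kidneys and 509, 433 and 500 CPM in WT kidneys. The groups overlapped through Digenic replicate 3, and the change was -0.27 ± 0.12 (adjusted p = 0.131), or -0.44 without that replicate (adjusted p = 0.0135). The kinase gene Wnk4 (ENSMUSG00000035112, chromosome 11: 101260567 to 101277409) had 97.1, 106 and 153 CPM in Digenic and 119, 129 and 131 CPM in WT kidneys. Its Digenic values lay on both sides of the WT values, with a change of -0.09 ± 0.13 (adjusted p = 0.66), and -0.32 without Digenic replicate 3 (adjusted p = 0.0173). Wnk4 overlaps the antisense gene Gm11615, at 10.4 to 16.0 CPM in Digenic and 11.1 to 13.3 CPM in WT kidneys, and the sources used here do not say whether the counting used strand. SPAK, encoded by Stk39 (ENSMUSG00000027030, chromosome 2: 68210445 to 68472268), phosphorylates NCC. Its gene had 57.8, 57.9 and 54.4 CPM in Digenic and 50.03, 54.6 and 47.4 CPM in WT kidneys, a change of 0.16 ± 0.07 (adjusted p = 0.123), or 0.22 without WT replicate 2 (adjusted p = 0.0492). Klhl3 (ENSMUSG00000014164, chromosome 13: 58004221 to 58113592) had 16.8, 18.7 and 21.0 CPM in Digenic and 22.1, 18.2 and 21.1 CPM in WT kidneys. These overlapped, with a change of -0.12 ± 0.10 (adjusted p = 0.403).

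Along the calcium route, Trpv5 (ENSMUSG00000036899, chromosome 6: 41652173 to 41680769), the apical entry channel, had 80.8, 37.4 and 49.1 CPM in Digenic kidneys, against 21.8, 23.4 and 23.6 CPM in WT kidneys. Every Digenic library was above every WT library, and Digenic replicate 1 stood apart at the top. The rise was 2.43-fold (1.28 ± 0.21, adjusted p = 0.00166), and without Digenic replicate 1 it was 0.91. The same value without that replicate and Pkd1-RC/RC replicate 2, whose headers differ from their labels, had an adjusted p of 0.00114. Calb1 (ENSMUSG00000028222, chromosome 4: 15881264 to 15908064), the buffer that shuttles calcium across the cell, had 700.4, 271 and 581 CPM in Digenic and 272, 394 and 233 CPM in WT kidneys. Digenic replicate 2 stood among the WT libraries, and the change was 0.78 ± 0.32 (adjusted p = 0.104), or 1.11 without that replicate (adjusted p = 0.00419). Slc8a1 (ENSMUSG00000054640, chromosome 17: 81388691 to 81649607), the basolateral sodium-calcium exchanger NCX1, had 77.0, 55.1 and 88.2 CPM in Digenic and 48.6, 39.3 and 36.1 CPM in WT kidneys. The groups did not overlap and the rise was 1.78-fold (0.83 ± 0.20, adjusted p = 0.0114). Its call was lost without WT replicate 3 (0.74, adjusted p = 0.0507) and in the fit of all 36 libraries (0.83, adjusted p = 0.0874). Slc8a1 is also made in muscle, and smooth muscle markers summed to 826 to 1266 CPM in Digenic and 519 to 668 CPM in WT kidneys over 5 genes, 3 of which rose, none at 0 in a library, and their part was not tested.

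Trpm6 (ENSMUSG00000024727, chromosome 19: 18749983 to 18892510), the apical magnesium channel, had 11.6, 12.4 and 10.6 CPM in Digenic and 8.38, 7.26 and 7.91 CPM in WT kidneys. The groups did not overlap, yet the change of 0.55 ± 0.22 did not pass (adjusted p = 0.0904), while with DESeq2 it did (0.56, adjusted p = 0.0468).

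**Figure D2:**
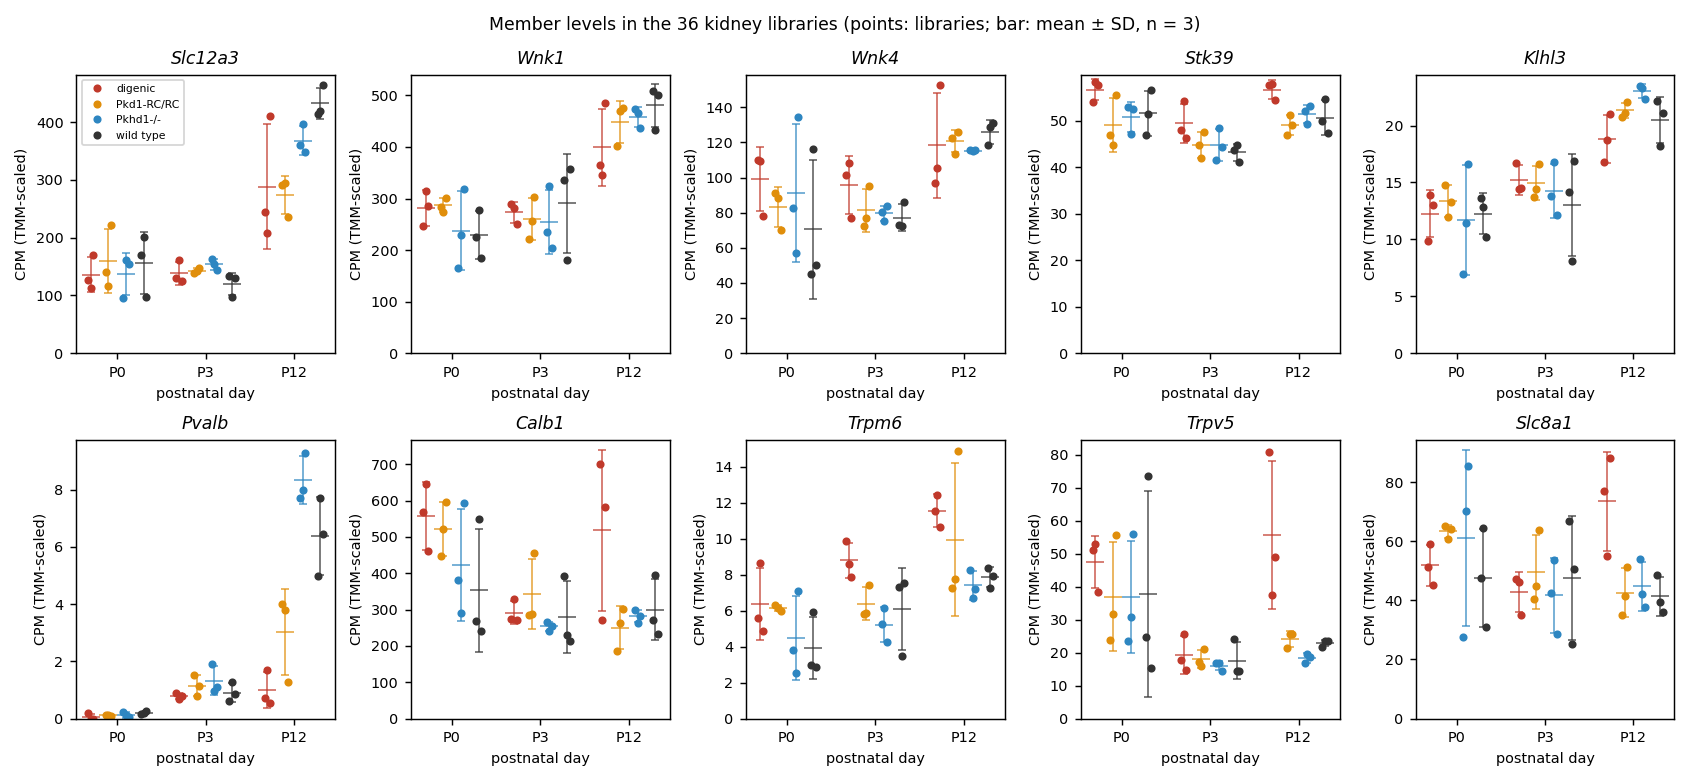
CPM of the 10 genes (linear axes from 0) in Digenic, Pkd1-RC/RC, Pkhd1-/- and WT kidneys at P0, P3 and P12; points are libraries, bars mean ± SD over 3. At P12 the Digenic points of Trpv5 and Slc8a1 lie above and those of Pvalb below all WT points, with Trpv5 at 37.4 to 80.8 CPM against 21.8 to 23.6 CPM.

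Set against either single mutant at P12, Digenic kidneys again had more Trpv5 RNA. Against Pkd1-RC/RC kidneys 4 of 10 members passed, 3 up and 1 down, where 19.5% of all genes did, and against Pkhd1-/- kidneys 5 of 10, 3 up and 2 down, where 28.2% did. These comparisons share the Digenic libraries, so their values stand side by side and are not independent. Trpv5 averaged 55.8 ± 22.5 CPM in Digenic kidneys, 24.2 ± 2.50 CPM in Pkd1-RC/RC and 18.4 ± 1.48 CPM in Pkhd1-/- kidneys. Its rise was 1.2 ± 0.21 over Pkd1-RC/RC (2.3-fold, adjusted p = 0.0036) and 1.60 ± 0.22 over Pkhd1-/- (3.04-fold, adjusted p = 0.000366), and both calls held without each library in turn. The interaction, the Digenic change beyond the sum of both single mutants on the log2 scale, passed for 1 of 10 members, against 8.57% of all genes. That member was Trpv5 (1.52 ± 0.30, adjusted p = 0.0145), with 1.16 to 1.75 over the 12 libraries left out in turn, all called. The fit of all 36 libraries gave 1.53 with an adjusted p of 0.122. The other interactions nearest the threshold were Pvalb (-2.01 ± 0.62, adjusted p = 0.0663) and Calb1 (1.14 ± 0.45, adjusted p = 0.14). Both passed without Digenic replicate 2 (-2.65 and 1.45), as did Slc8a1 (0.84), and Pvalb (-2.38) and Trpm6 (0.70) passed without Pkd1-RC/RC replicate 3.

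Pvalb averaged 0.990 ± 0.629 CPM in Digenic, 3.02 ± 1.51 CPM in Pkd1-RC/RC and 8.32 ± 0.834 CPM in Pkhd1-/- kidneys. It fell 8.47-fold against Pkhd1-/- (-3.08 ± 0.47, adjusted p = 0.000758), a call that held without each library. Against Pkd1-RC/RC Pvalb fell by 1.62 ± 0.46 (adjusted p = 0.0293), but without Digenic replicate 1 (-1.44) or 3 (-1.32) or Pkd1-RC/RC replicate 1 (-1.34) or 2 (-1.44) it did not pass. Slc8a1, at 73.4 ± 16.9 CPM in Digenic, 42.6 ± 8.23 in Pkd1-RC/RC and 44.7 ± 8.38 in Pkhd1-/- kidneys, rose 1.72-fold and 1.64-fold over them (0.78 ± 0.20, adjusted p = 0.0181, and 0.72 ± 0.20, adjusted p = 0.0189). Without Digenic replicate 3 neither Slc8a1 call held (0.63 and 0.56), nor did the first without Pkd1-RC/RC replicate 1 (0.68) or 2 (0.76) or the second without Pkhd1-/- replicate 2 (0.68) or 3 (0.61). Calb1 rose 2.06-fold over Pkd1-RC/RC (518 ± 221 against 250 ± 59.8 CPM, 1.05 ± 0.32, adjusted p = 0.0451), a call that stayed only when Digenic replicate 2 was the library left out (1.37), with 0.77 to 1.21 in the other 5 cases. Over Pkhd1-/- Trpm6 rose 1.56-fold (11.5 ± 0.909 against 7.40 ± 0.795 CPM, 0.64 ± 0.22, adjusted p = 0.0476), and this call was lost without any 1 of the 6 libraries (0.57 to 0.73). Klhl3 fell by 0.29 ± 0.10 against Pkhd1-/- (adjusted p = 0.0432), a call left only when Digenic replicate 3 was omitted, with -0.31 to -0.21 in the other 5 cases. Some genes passed only with 1 library omitted. Without Digenic replicate 3, Slc12a3 (-0.70) and Wnk1 (-0.37) passed against Pkhd1-/-, and Wnk1 (-0.34) and Wnk4 (-0.26) against Pkd1-RC/RC. Without Digenic replicate 2, Calb1 passed against Pkhd1-/- (1.19), and without Pkd1-RC/RC replicate 3, Trpm6 against Pkd1-RC/RC (0.62).

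Slc12a3 had a different order among the genotypes. It averaged 288 ± 108 CPM in Digenic, 274 ± 32.9 CPM in Pkd1-RC/RC, 368 ± 25.2 CPM in Pkhd1-/- and 432 ± 27.4 CPM in WT kidneys. The Digenic and Pkd1-RC/RC means were close (0.07 ± 0.20, adjusted p = 0.85). The Digenic libraries ran from 208 to 411 CPM, with only replicate 3 near the WT level, so this does not show that both groups are alike. Pkd1-RC/RC libraries held 291, 294 and 236 CPM, all below WT, with a change of -0.66 ± 0.20 that did not pass (adjusted p = 0.423). Without the libraries with adrenal transcripts, none of which is Pkd1-RC/RC or WT at P12, that change was -0.66 with an adjusted p of 0.0273. Pvalb had 4.0, 3.78 and 1.28 CPM in Pkd1-RC/RC kidneys, also below every WT library (-1.08 ± 0.42, adjusted p = 0.605). In all, 0 of 10 members passed in Pkd1-RC/RC against WT at P12, where 0.267% of all genes did. At an unadjusted p under 0.05 stood 2 members and 1343 of all 18002 genes, and DESeq2 called 0 members and 163 genes. In Pkhd1-/- against WT 0 of 10 passed, where 0.0333% of all genes did. At an unadjusted p under 0.05 stood 0 members and 793 genes, and DESeq2 called 0 members and 10 genes. The libraries of these 2 groups did not overlap for 5 of the 10, and for 15.5% of all genes. Those 5 were Slc12a3 (-0.23 ± 0.20), Wnk4 (-0.13 ± 0.13), Klhl3 (0.17 ± 0.10), Pvalb (0.38 ± 0.41) and Trpv5 (-0.32 ± 0.21), each with an adjusted p of 0.957.

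**Figure D3:**
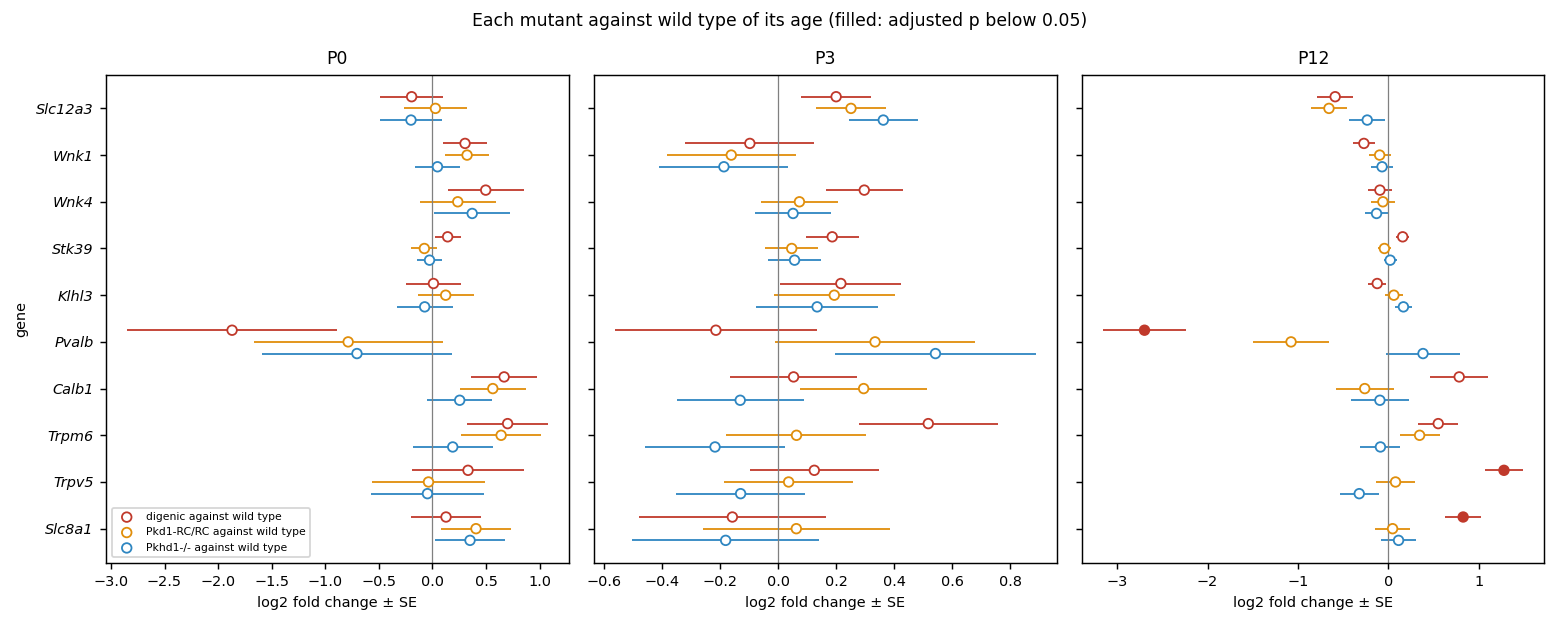
Log2 fold change ± SE of the 10 genes in each mutant against WT of its age, with a separate scale for each age; filled points have an adjusted p below 0.05. Filled points appear only in Digenic kidneys at P12, for Pvalb (-2.70), Trpv5 (1.28) and Slc8a1 (0.83).

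Before P12 none of the 10 genes passed between genotypes. At P0, edgeR called 0 of 10 in each of the 6 comparisons, and DESeq2 likewise 0. At an unadjusted p under 0.05 stood 1 member in Digenic against WT (Calb1), with 2950 of all 18035 genes, and 0 members in the other comparisons. The shares of all genes called at P0 were 0.671% for Digenic against WT, 0.0166% for Pkd1-RC/RC against WT, 0.0111% for Pkhd1-/- against WT, 0.0388% for Digenic against Pkd1-RC/RC, 0.244% for Digenic against Pkhd1-/- and 0.00554% for the interaction. Calb1 had 568, 647 and 460 CPM in Digenic kidneys at P0 and 268, 549 and 241 CPM in WT kidneys (0.67 ± 0.31, adjusted p = 0.302). Trpm6 had 5.60, 8.64 and 4.87 CPM in Digenic and 2.95, 5.93 and 2.89 CPM in WT kidneys (0.70 ± 0.37, adjusted p = 0.376). For both genes WT replicate 2 overlapped the Digenic libraries. Slc12a3 had 126, 113 and 169 CPM in Digenic and 170.4, 202 and 96.9 CPM in WT kidneys (-0.19 ± 0.29). Pvalb was close to its detection limit at P0, with 0.177 CPM in 1 Digenic library and a count of 0 in the other 2, which allows up to 3 counts or 0.0400 and 0.0416 CPM for counting error alone.

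At P3, edgeR again called 0 of 10 in each comparison, with all genes called at 2.70% for Digenic against WT, 0.0443% for Pkd1-RC/RC against WT, 0.0166% for Pkhd1-/- against WT, 0.460% for Digenic against Pkd1-RC/RC, 3.49% for Digenic against Pkhd1-/- and 0% for the interaction. With sex as a term, Digenic against WT called 54 genes in place of 487, Digenic against Pkd1-RC/RC 7 in place of 83 and Digenic against Pkhd1-/- 4 in place of 630. These Digenic libraries were all female and the Pkhd1-/- ones all male. The sex term therefore rests on the WT and Pkd1-RC/RC libraries, and the lower counts cannot tell an effect of sex from lost precision. For that interaction, 1457 genes stood at an unadjusted p under 0.05 and DESeq2 called 211. Of the members, 1 stood at an unadjusted p under 0.05 in Digenic against WT (Wnk4) and 1 in Pkhd1-/- against WT (Slc12a3). There were 2 in Digenic against Pkhd1-/- (Pvalb and Trpm6), 2 in the interaction (Slc12a3 and Pvalb) and 0 in the remaining 2 comparisons. Of all 18043 genes, 2847 did so in Digenic against WT, 396 in Pkhd1-/- against WT and 3428 in Digenic against Pkhd1-/-. DESeq2 called 1 member, in Digenic against Pkhd1-/-, and 0 in the other comparisons. Trpm6 had 9.84, 8.61 and 7.89 CPM in Digenic kidneys at P3 and 7.28, 3.48 and 7.55 CPM in WT kidneys, without overlap (0.52 ± 0.24, adjusted p = 0.32). Trpv5 had 17.7, 25.6 and 14.6 CPM in Digenic and 24.1, 14.3 and 14.4 CPM in WT kidneys at P3, and Slc8a1 had 47.1, 46.2 and 35.1 CPM in Digenic and 66.8, 25.1 and 50.6 CPM in WT kidneys. Both overlapped, with changes of 0.12 ± 0.22 for Trpv5 and -0.16 ± 0.32 for Slc8a1. Slc12a3 had 129, 161 and 125 CPM in Digenic and 133, 97.7 and 129 CPM in WT kidneys (0.20 ± 0.12, adjusted p = 0.445).

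Whether the Digenic effect itself differed between ages was tested in 1 fit of all libraries, and 0 of 10 members passed in any of the 3 differences. The shares of all genes called were 0.693% for P3 minus P0, 2.33% for P12 minus P3 and 8.79% for P12 minus P0. At an unadjusted p under 0.05 stood 0, 4 and 0 members, and 1822, 2743 and 4268 of all 18049 genes. DESeq2 called 0, 1 and 0 members, and 297, 738 and 2093 genes. For P12 minus P3 those 4 were Pvalb (-2.49 ± 0.72, adjusted p = 0.0615), Trpv5 (1.15 ± 0.55, adjusted p = 0.321), Slc8a1 (0.98 ± 0.46, adjusted p = 0.301) and Slc12a3 (-0.79 ± 0.34, adjusted p = 0.249). Thus the calls at P12 and their lack at P3 are not shown to be a difference between ages for these genes. With 1 library omitted, Pvalb passed for P12 minus P3 (-3.13, without Digenic P12 replicate 2) and for P3 minus P0 (without Digenic P0 replicate 1, where the fitted 6.52 depends on the prior count since that group is then at counts of 0), and Wnk4 for P12 minus P0 (-1.14, without WT P0 replicate 2). Over the 10 genes the median Digenic change was 0.22 for P0, 0.15 for P3 and 0.03 for P12, and 8, 7 and 5 of them lay above 0.

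Around the 10 genes, lists of genes with related roles were counted in Digenic against WT at P12, where 23.0% of all genes passed. The 6 genes listed for distal convoluted tubule identity included 1 that rose (Tfap2a) and 3 that fell, with a median of -0.41, while the median of all genes was -0.01. Whole-kidney counts do not show which segment made the Tfap2a RNA, so its rise is not read as a gain of that identity. Tfap2a, an AP-2 transcription factor, rose (14.1 ± 1.6 against 6.21 ± 0.81 CPM, 1.18 ± 0.16, adjusted p = 0.000327), and its relative Tfap2b fell (49.5 ± 7.9 against 67.8 ± 8.9 CPM, -0.46 ± 0.12, adjusted p = 0.0193). The transcription factor genes Sall3 (-0.63 ± 0.15, adjusted p = 0.0105) and Emx1 (-0.47 ± 0.15, adjusted p = 0.0377) also fell. Tfap2b lost its call without WT replicate 1 or Digenic replicate 1 (-0.33 each), and Emx1 without WT replicate 2 or 3 or Digenic replicate 1 or 2 (-0.52 to -0.31). Summed over the 6 genes, Digenic libraries held 476 to 652 CPM and WT libraries 621 to 652 CPM.

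Among 12 other genes of WNK and SPAK control, 1 rose and 1 fell, against 23.0% of all genes called, with a median of 0.02. Nedd4l, a ubiquitin ligase that lowers sodium transporters at the membrane, rose (155 ± 18 against 98.9 ± 5.4 CPM, 0.65 ± 0.09, adjusted p = 0.000517). Ppp1r1a, an inhibitor of protein phosphatase 1, fell (52.0 ± 12 against 123 ± 15 CPM, -1.24 ± 0.16, adjusted p = 0.000251). Of 7 genes of basolateral exit 0 rose and 2 fell, with a median of -0.25. These were Bsnd, the chloride channel subunit barttin (-0.77 ± 0.14, adjusted p = 0.00203), and Fxyd2, a regulatory subunit of the sodium pump (-0.57 ± 0.13, adjusted p = 0.00942, and -0.55 with adjusted p = 0.0839 without the libraries with adrenal transcripts).

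Of 11 further genes of calcium handling 1 rose and 4 fell, with a median of -0.40. Trpv6, the neighbour and closest relative of Trpv5, 15767 bases from it, had 25.1, 13.2 and 9.72 CPM in Digenic kidneys, against 3.98, 3.20 and 2.97 CPM in WT kidneys. It rose in all Digenic libraries (2.24 ± 0.28, adjusted p = 0.000231). The copies are similar in sequence, and the sources used here do not say how reads matching both were counted. Klk1, a kallikrein protease of the connecting tubule, had 127, 90.8 and 120.1 CPM in Digenic and 671, 901 and 850.0 CPM in WT kidneys (-2.84 ± 0.25, adjusted p = 4.23e-05). Kl, the klotho co-receptor of FGF23, fell (457 ± 46 against 720 ± 45 CPM, -0.66 ± 0.11, adjusted p = 0.00127), as did the parathyroid hormone receptor gene Pth1r (-0.77 ± 0.09, adjusted p = 0.000152), which is also made by the proximal tubule. Casr, the calcium-sensing receptor, fell by 0.47 ± 0.14 (adjusted p = 0.0254), and lost its call without WT replicate 1 or 3 or Digenic replicate 1 (-0.42, -0.42 and -0.33). Of 10 genes of magnesium handling 1 rose and 3 fell, with a median of -0.06. Egf, whose product stimulates TRPM6, had 27.5, 43.0 and 46.3 CPM in Digenic and 301, 276 and 526 CPM in WT kidneys (-3.24 ± 0.31, adjusted p = 0.000104). Its receptor gene Egfr rose (0.55 ± 0.10, adjusted p = 0.00163), and Pcbd1, a gene of a transcription cofactor, fell (-0.67 ± 0.12, adjusted p = 0.00218), with Fxyd2 the other gene that fell.

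**Figure D4:**
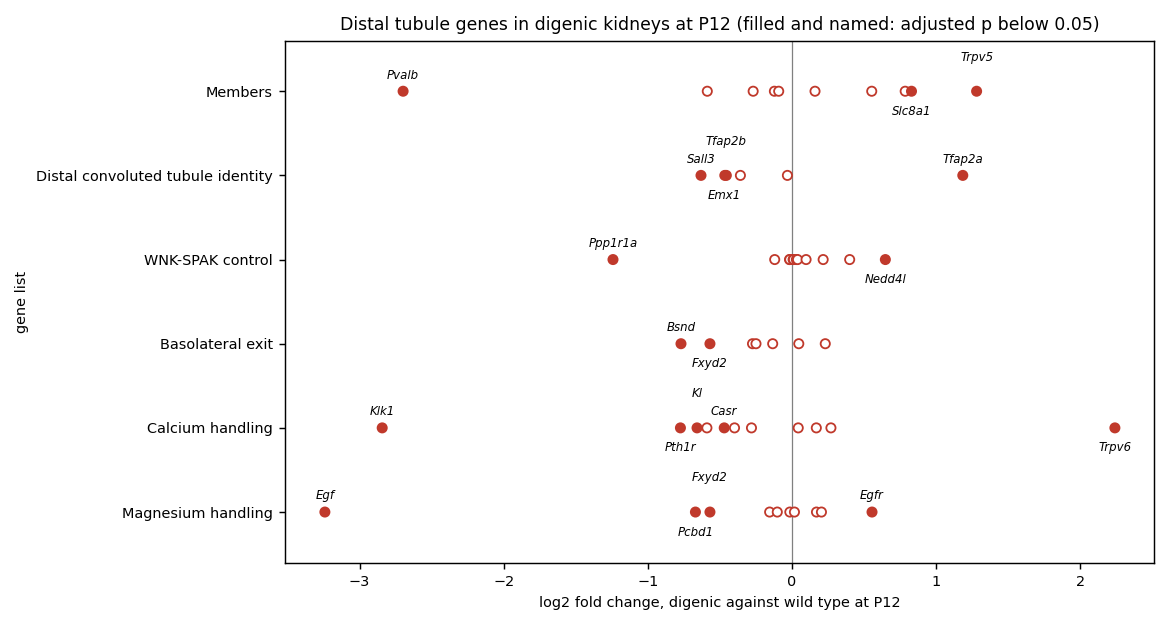
Log2 fold change in Digenic against WT kidneys at P12 for the 10 genes and 5 lists of related genes, 1 point per gene; filled, named points have an adjusted p below 0.05. Trpv6 (2.24) and Trpv5 (1.28) are the highest points and Egf (-3.24), Klk1 (-2.84) and Pvalb (-2.70) the lowest.

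Against the single mutants at P12 the same lists were counted, with the shared Digenic libraries again in both. Of all genes, 19.5% passed against Pkd1-RC/RC and 28.2% against Pkhd1-/-. Against Pkd1-RC/RC, 1 calcium gene rose and 3 fell, and 2 magnesium genes rose and 2 fell. Of the identity list 1 rose (Tfap2a) and 0 fell, 1 WNK-SPAK gene rose and 1 fell, and of basolateral exit 0 rose and 1 fell. Against Pkhd1-/-, for which 4 of the 5 lists are given, 2 calcium genes rose and 3 fell. Of the identity list 1 rose (again Tfap2a) and 0 fell, 2 WNK-SPAK genes rose and 1 fell, and of basolateral exit 0 rose and 2 fell. The calls of Egfr, Trpv6, Tfap2a, Egf, Klk1, Pth1r and Ppp1r1a held without any single library, while those of Bsnd, Cnnm2, Pcbd1, Kl, S100g and Slc41a1 did not all do so. Trpv6 rose over Pkd1-RC/RC by 1.68 ± 0.27 (adjusted p = 0.00199) and over Pkhd1-/- by 2.48 ± 0.28 (adjusted p = 0.000101), and Tfap2a by 0.81 ± 0.16 and 1.66 ± 0.16 (adjusted p = 0.00444 and 3.45e-05). Egf fell by 2.45 ± 0.30 and 2.99 ± 0.30, and Klk1 by 1.83 ± 0.24 and 2.67 ± 0.25 (adjusted p from 3.79e-05 to 0.000897 over these 4). In the single mutants against WT, edgeR called 0 of the 45 genes of the 5 lists at each age, and 0.0111% to 0.267% of all genes. At P12, 12 of the 45 stood at an unadjusted p under 0.05 in Pkd1-RC/RC (1 called by DESeq2) and 4 in Pkhd1-/- (0 by DESeq2). Of all 18002 genes, 1343 and 793 did so. At P3 the list counts were 5 (0) and 2 (1), with 805 and 396 of all 18043 genes at an unadjusted p under 0.05. At P0 they were 5 (0) and 1 (0), with 1880 and 849 of all 18035 genes. In Digenic against WT at P3, 2.70% of all genes passed. Among the list genes Klk1 (-1.08, adjusted p = 0.03), Egfr (0.48, adjusted p = 0.0333), Nedd4l (0.45, adjusted p = 0.0273) and Hsd11b2 (-0.51, adjusted p = 0.0473), which protects the mineralocorticoid receptor from glucocorticoids, passed. Each of these P3 calls was lost with sex as a term (adjusted p = 0.158 to 0.277). The P3 Digenic libraries were all female, so this loss cannot tell an effect of sex from lost precision. Each was also lost without at least 4 of the 6 libraries singly. There Klk1 ran from -1.17 to -0.85, Egfr from 0.38 to 0.54, Nedd4l from 0.38 to 0.46 and Hsd11b2 from -0.54 to -0.45. In WT maturation, P12 against P3, 35.5% of all genes passed in either direction, and all 7 genes of basolateral exit rose, with a median of 1.0. Of the identity genes Emx1, Tfap2b, Tmem52b and Sostdc1 rose, and Tfap2a (-1.15 ± 0.18) and Sall3 (-0.41 ± 0.16) fell. Sall3 and Sostdc1 each lost their call without some single libraries, with -0.40 to -0.31 for Sall3 and 0.41 to 0.43 for Sostdc1. Trpv6 fell by 1.47 ± 0.27 over that interval (adjusted p = 9.54e-05) and Egf rose by 4.75 ± 0.37 (adjusted p = 1.36e-10).

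Markers of other cells also differed in Digenic against WT kidneys at P12, where 23.0% of all genes passed. The 6 principal cell genes all rose (summed 2269 to 2984 CPM against 610 to 811 CPM), and principal cells and the connecting tubule, which makes Trpv5, Calb1 and Slc8a1, adjoin each other. Of 6 proximal tubule genes 5 fell (4233 to 4764 CPM against 8716 to 11613 CPM), of 4 thick ascending limb genes 3 fell (1862 to 2304 CPM against 3252 to 3528 CPM), and of 4 tubular injury genes 3 rose (193 to 588 CPM against 56.3 to 70.6 CPM). Of 4 endothelial genes 3 fell, of 3 podocyte genes 2 fell and of 4 ureteric tip genes 2 rose. For intercalated cells edgeR called 0 of 4 (4 at an unadjusted p under 0.05, 2 by DESeq2). For fat and for neurons it called 0 of 4 each (0 by either measure for both). Of all 18002 genes, 6503 stood at an unadjusted p under 0.05 and DESeq2 called 4985. The adrenal list had 1 of 7 up, with summed levels of 3.14, 102 and 143 CPM in Digenic and 3.5 to 3.7 CPM in WT kidneys. None of these markers except the adrenal and neuron ones was at 0 in a P12 library. In Pkd1-RC/RC kidneys the principal cell sum was 790 to 1536 CPM and in Pkhd1-/- kidneys 673 to 697 CPM. The part of these markers in the differences of the 10 genes was not tested.

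Across the 36 libraries, as deviations of log2 CPM from the mean of the age, Calb1, Trpv5 and Slc8a1 varied together, but not they alone. Pearson's r was 0.80 for Calb1 and Trpv5, 0.66 for Trpv5 and Slc8a1 and 0.65 for Calb1 and Slc8a1. With Trpm6 these genes had an r of 0.63 (Calb1), 0.60 (Trpv5) and 0.59 (Slc8a1). It was 0.82 for Wnk1 and Klhl3, 0.63 for Wnk4 and Trpm6 and 0.63 for Wnk1 and Slc8a1. Pvalb went against Trpv5 (-0.64), Calb1 (-0.54) and Slc8a1 (-0.53). The libraries share genotype, depth and composition, so these describe the data only. Among 12898 genes, those most like Slc12a3 were Aldh1l1 (0.782), Sdha (0.780), Lamp1 (0.774), Abat (0.767) and Cdhr5 (0.761), and with the proximal tubule sum Slc12a3 had an r of 0.53. Those most like Calb1 were Iars (0.815), Trpv5 (0.802), Usp4 (0.783), Vac14 (0.756) and Dhx9 (0.747), and those most like Trpm6 were Mon2 (0.857), Myo9b (0.851), Pik3r4 (0.842), Synrg (0.840) and Ralgps1 (0.826).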

How the data were processed

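RNA of 36 whole kidneys was read as 150 bp pairs. Per the submitters' processing notes, which name TopHat2, Bowtie, featureCounts, edgeR, mm10 and MAP-RSeq 2.1.0, reads were aligned and counted by the authors. The deposited values used here are raw counts per gene, and the 36 normalized columns were not used. Groups came from the labels. Counts were tested with the quasi-likelihood test of edgeR 4.0.16 (R 4.3.3, limma 3.58.1) after filterByExpr and TMM scaling, over the 12 libraries of an age, with 1 fit of all 36 for comparisons between ages. P-values were Benjamini-Hochberg adjusted over all genes, called under 0.05. CPM used TMM-scaled totals of all 36 libraries, RPKM also gene length, and log2 CPM a prior count of 2. All 10 genes passed the filter. Scripts were tested on simulated data. Alternatives were RLE scaling, DESeq2 1.42.0, no filter, the replicate block, sex, gene length, 1 fit for all ages and omitted libraries. The 10 genes, the 18 other lists and the naming rule (all 10, list members that passed, the 5 nearest patterns) were chosen with earlier results of these data known. Positions are mm10. A result of 1 gene of these lists is not reported here.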

Additional observations from a re-analysis of the deposited data

Results flagged for a closer look

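At P12 the Digenic change differed from the sum of both single-mutant changes, by the test of that interaction itself, for 7 of 55 genes (the 10 and the 45 of the 5 related lists), where 8.57% of all genes passed. The marker lists of other cells are not included. These were Trpv5 (1.52), Trpv6 (1.92), Tfap2a (1.29), Nedd4l (0.50), Egfr (0.66), Klk1 (-1.65) and Egf (-2.19), all on the log2 scale.

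The Digenic change against WT differed between ages for Trpv6 (2.77 for P12 minus P3 and 2.13 for P12 minus P0), Tfap2a (1.43 and 0.86) and Egf (-2.78 and -2.48), and for P12 minus P0 also for Sall3 (-0.78) and Pth1r (-0.74). These are 3 of the 55 genes for P12 minus P3 and 5 for P12 minus P0, where 2.33% and 8.79% of all genes passed. The count for P12 minus P0 is near the share of all genes. The fit of all 36 libraries is the test that gave these calls and is not a second check of them. They share the P12 libraries and are not independent.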

How the results depend on the processing

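RLE scaling and omission of the filter kept every count of called members within 1.5 times. DESeq2 called more genes in general. In Digenic against WT at P12 it called 5 members in place of 3, and 4985 genes in place of 4141. For the P12 interaction it called 2 members in place of 1, and 2729 genes in place of 1542. In Digenic against Pkhd1-/- at P3 it called 1 member in place of 0, and 1379 genes in place of 630. For the Digenic effect at P12 minus P3 it called 1 member in place of 0, and 738 genes in place of 420. Removal of the gene length trend also gave 1 member there. The counts below are of members only and are not set beside counts of all genes. With sex as a term the counts were 2 in place of 4 (Digenic against Pkd1-RC/RC) and 3 in place of 5 (Digenic against Pkhd1-/-) at P12. The fit of all 36 libraries gave 3 in place of 5 for Digenic against Pkhd1-/- and 0 in place of 1 for the P12 interaction. Without the libraries with adrenal transcripts, the counts at P12 rose for Digenic against WT, Pkd1-RC/RC against WT and the interaction. That setting leaves 1 Digenic library at P12, assumed to vary like the other groups. It is replicate 1, whose header differs from its label in age. Without the 2 libraries whose headers differ from their labels, an alternative chosen after seeing the data, the counts were 1 in place of 4 (Digenic against Pkd1-RC/RC) and 2 in place of 5 (Digenic against Pkhd1-/-). The causes were not tested. No library passed the limit for skeletal muscle transcripts, so leaving such libraries out was not run.

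With single libraries left out, the counts ran from 2 to 6 (Digenic against WT), 1 to 4 (Digenic against Pkd1-RC/RC), 2 to 5 (Digenic against Pkhd1-/-) and 1 to 4 (interaction) at P12, from 1 to 4 (WT P3 against P0) and 2 to 4 (WT P12 against P3), and from 0 to 1 for each change of the Digenic effect with age. No called change reversed under any alternative. Same-numbered libraries correlated over 0.1 in 5 of 18 pairs at P0, 3 of 18 at P3 and 7 of 18 at P12. Libraries with different numbers did so in 14 of 36, 15 of 36 and 10 of 36 pairs. These are deviations from the means of groups of 3, so they cannot decide whether the numbers mark pairs. With the replicate block the counts were 3 in place of 5 (Digenic against Pkhd1-/- at P12), 0 in place of 3 (WT P3 against P0) and 2 in place of 6 (WT P12 against P3). Of the calls of the related genes in single-library omissions, 777 held and 135 were lost. With the replicate block 112 of these calls held and 26 were lost, and with sex as a term 127 and 11. In the fit of all 36 libraries 40 held and 18 were lost. Without the 2 libraries whose headers differ from their labels, 45 held and 13 were lost. With the gene length trend removed 136 held and 2 were lost. Calls were also lost without the libraries with adrenal transcripts, a setting that leaves 1 Digenic library at P12, so its count is not given. DESeq2, RLE scaling and omission of the filter each kept all 138. Depth limits only Pvalb at P0; elsewhere the spread between 3 libraries limits precision.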
